A study of Mus musculus with 6 samples.

Results

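Beta-defensins were read in whole testis by 51 probes, the non-control probes whose gene name on the array began with Defb, out of 55681 non-control probes. The 51 probes named 43 beta-defensin genes out of 34844 gene names on the array. Testes came from 3 Gipr knockout mice (labelled GIPR KO) and 3 wild-type mice, all C57BL/6 and 8 weeks old, and each testis RNA was hybridised to 1 array of its own with 1 dye. Gipr encodes the receptor for the gut hormone GIP. The series compares testis gene expression between these genotypes, and the deleted segment of Gipr is not stated in the labels.

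Beta-defensins are small, positively charged, secreted peptides whose fold is held by disulfide bonds between conserved cysteines. They damage microbial membranes, and some act as signals to host cells through receptors such as Ccr6. Their genes lie in a few dense clusters, and many mouse members are known from the epididymis, where sperm mature and acquire a peptide coat, rather than from the testis. Defb19 is a member known from Sertoli cells, the somatic cells that nurse germ cells in the seminiferous tubule.

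The cysteine core could be seen in the probes themselves. A TGT or TGC codon, followed by 4 to 7 codons and then by 2 adjacent TGT or TGC codons in an open reading frame on the probe's own strand, was present in 13 of the 51 probes (25.5%), against 419 of all 55681 array probes (0.753%). Those 13 probes belonged to 13 genes, 9 of which were detected in testis. The following 60-base probes are shown because they read core cysteine codons of members described below. Capitals mark only the cysteine codons of this pattern, and an earlier tgt codon in the same frame of the Defb34 and Defb15 probes is in lower case. Positions are on mouse build mm9 as the files give them.
Defb36 (A_55_P2064506, chr2:152438270-152438329, plus strand): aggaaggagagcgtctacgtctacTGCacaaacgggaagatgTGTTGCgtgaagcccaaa
Defb14 (A_52_P68883, chr8:19195152-19195211, plus strand): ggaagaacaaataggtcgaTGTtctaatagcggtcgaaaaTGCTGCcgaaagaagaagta
Defb11 (A_51_P317254, chr8:23015921-23015980, minus strand): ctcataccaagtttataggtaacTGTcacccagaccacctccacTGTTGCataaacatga
Defb34 (A_52_P280832, chr8:19126406-19126465, plus strand): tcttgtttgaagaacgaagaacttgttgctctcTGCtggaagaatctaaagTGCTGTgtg
Defb15 (A_51_P414746, chr8:23040417-23040476, minus strand): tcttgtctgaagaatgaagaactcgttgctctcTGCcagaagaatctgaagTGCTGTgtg
In the probes shown, 5 or 6 codons separated the single capitalised codon from the adjacent pair. The Defb34 and Defb15 probes differed at 6 of 60 bases (90% identity) although the genes lie in different clusters of chromosome 8. No other pair of member probes reached 80% identity over 40 bases. Signal of Defb34 and Defb15 is therefore reported as uncertain, since RNA of either could bind the other's probe.

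The arrays themselves differed little. Between 70.6% and 76.0% of non-control spots were well above background, a flag that the image software sets for each spot, and 0 were saturated. The lowest processed signal that carried the flag lay between 8.31 and 11.6 over the 6 arrays. All arrays lay on 1 slide, with the knockout samples in row 1 and the wild-type samples in row 2, so row and genotype cannot be told apart. The targeted gene followed the labels. The Gipr probe read 155, 145 and 176 (processed signal) in knockout testes and 782, 820 and 1043 in wild-type testes, a log2 difference of -2.48 (SE 0.12, limma adjusted p = 0.00311). Testis markers stood well above background in all 3 mice of a genotype for 10 of 10 germ cell genes, 22 of 22 Sertoli cell genes and 5 of 5 Leydig cell genes on the array. Among 20 epididymal secretory genes, 6 (Crisp1, Gpx5, Lcn5, Lcn8, Pate4 and Rnase9) were well above background on no array. A further 10 passed that same rule, among them Cst8 and Eppin, which the testis is known to express as well, and the other 4 were seen on some arrays only.

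Beta-defensin RNA was found in the testis for 18 of the 43 genes (41.9%), against 77.4% of all array gene names. A gene counted as detected where a probe stood well above background in all 3 mice of a genotype. By probe the counts were 24 of 51 (47.1%) for beta-defensins and 69.8% for all probes. A total of 21 genes were well above background on no array, and by probe this was 23 of 51 (45.1%), against 21.5% of all probes. Per array, 19, 20 and 17 genes were seen in knockout testes and 17, 18 and 19 genes in wild-type testes, so the genotypes overlapped. These shares were not tested, since genes of one cluster are not independent.

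The detected members were spread over every cluster, with the highest shares on chromosomes 2 and 14 among clusters of more than 1 gene. On chromosome 2, 7 of 11 genes between positions 152285053 and 152448152 were detected, namely Defb20, Defb28, Defb21, Defb19, Defb45, Defb36 and Defb25. On chromosome 14, 4 of 5 genes between 63596378 and 63668703 were detected, Defb48, Defb47, Defb30 and Defb42. Of the larger chromosome 8 groups, 3 of 14 genes between 18974949 and 19497728 (Defb39, Defb34 and Defb14) and 2 of 9 between 22905041 and 23059038 (Defb11 and Defb15) were detected. Defb41, 1 of 3 genes on chromosome 1, and the pseudogene Defb48-ps, on a piece of chromosome 8 with no assigned place, completed the 18. The undetected members of the first chromosome 8 group included Defb3, Defb4 and Defb6, which are known from epithelia or muscle.

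**Figure D1:**
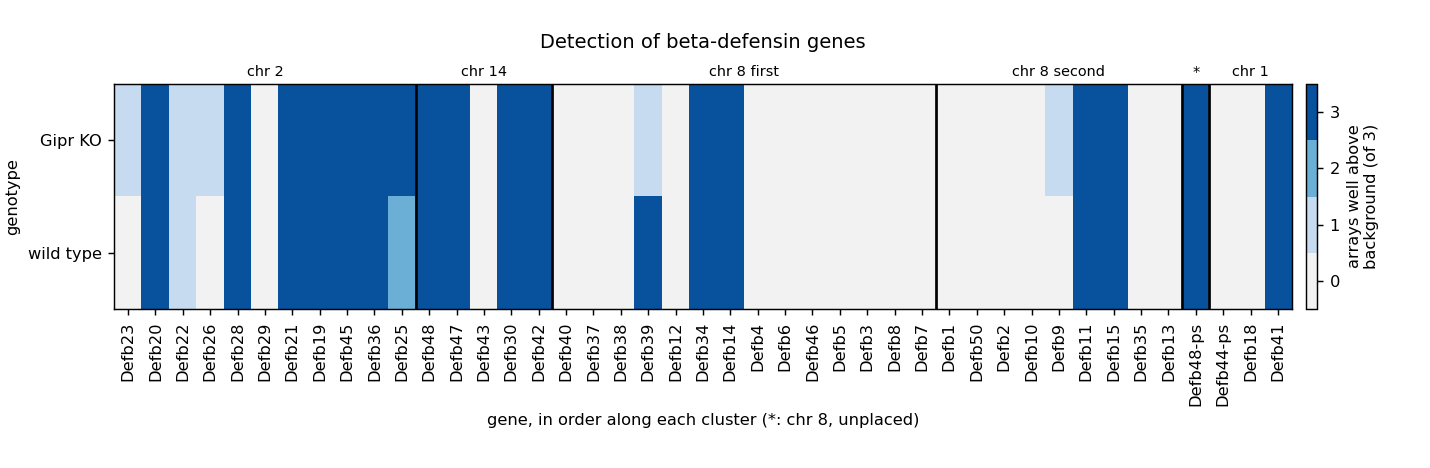
Each column is a beta-defensin gene in order along its cluster and each row a genotype, and the colour gives the number of arrays out of 3 on which a probe of the gene was well above background. Dark columns fill much of the chromosome 2 and chromosome 14 clusters (7 of 11 and 4 of 5 genes), while most of both chromosome 8 clusters are pale (3 of 14 and 2 of 9 genes detected).

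Detection was also counted by the site each member is known from. Defb19, the Sertoli cell member, was detected. Of 22 members known from epididymis, 9 were detected in testis (Defb11, Defb15, Defb20, Defb21, Defb30, Defb39, Defb41, Defb42 and Defb48), 4 were seen on some arrays only, and 9 were well above background on no array. The 9 without signal were Defb10, Defb12, Defb13, Defb18, Defb35, Defb37, Defb38, Defb40 and Defb50. Among 6 members known from other epithelia or muscle, Defb14 was detected, while Defb1, Defb2, Defb3, Defb4 and Defb6 were well above background on no array. Of 14 members in none of these lists, 7 were detected.

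Defb19 carried a signal far above background in every testis, and genotypes did not separate. Its probe read 36230.0, 32793 and 36128 in knockout testes and 33353, 31318 and 37173 in wild-type testes. The highest value and the lowest value were both from wild-type testes. On the log2 scale, relative to the 75th percentile of each array, Defb19 averaged 5.53 ± 0.02 in knockout testes and 5.49 ± 0.10 in wild-type testes (SD, n = 3 each). The fold change was 1.03 (95% interval 0.912 to 1.15, limma adjusted p = 0.892).

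Defb36, in the same cluster, overlapped between genotypes on both of its probes. The probe in the cysteine core read 16193, 14445 and 15472.5 in knockout testes and 14782, 13412.5 and 16112 in wild-type testes. There the fold change was 1.03 (95% interval 0.915 to 1.17, limma adjusted p = 0.858). The other Defb36 probe, whose ends map to positions 152430258 and 152438252 and which therefore crosses a splice junction, read 5701, 5294 and 5457 in knockout testes and 5197, 5088 and 5586 in wild-type testes. Its fold change was 1.03 (95% interval 0.934 to 1.13, limma adjusted p = 0.847). The probes gave the same fold change to 3 digits. In bulk tissue, fewer cells of a type and less RNA per cell cannot be told apart, and this holds for each member.

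Defb45 lies between Defb19 and Defb36 on the map. One of its probes read 3838, 3364 and 3829 in knockout testes and 3697, 3743 and 2646 in wild-type testes. A second Defb45 probe read 2567, 2427 and 2931 in knockout testes and 2637, 2769 and 2024 in wild-type testes. Both probes were lowest in wild-type replicate 3, where they stood -0.43 and -0.36 (log2) from their mean over the 6 arrays. The differences between genotypes were 0.13 (SE 0.16) and 0.09 (SE 0.15), with limma adjusted p of 0.818 and 0.870. Without wild-type replicate 3 they were -0.05 and -0.07, so the sign rested on that testis.

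Defb21, known from epididymis, showed its spread within the knockout group instead. Its probe read 899, 1332 and 1142 in knockout testes and 1219, 1137 and 1329 in wild-type testes. Knockout replicate 1 was the low sample, at -0.44 (log2) from the mean over the 6 arrays. The difference was -0.15 (SE 0.17, limma adjusted p = 0.810), and 0.02 without that sample.

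The dim members of the chromosome 2 cluster gave no call either. Defb20, known from epididymis, read 43.8, 28.2 and 45.3 in knockout testes and 33.5, 28.9 and 37.1 in wild-type testes (log2 difference 0.20, SE 0.17). The Defb28 probes gave differences of -0.09 (SE 0.24) and -0.08 (SE 0.16). Defb25 was well above background in 3 knockout testes, where it read 14.9, 17.6 and 17.5, and in 2 of 3 wild-type testes, where it read 12.1, 14.3 and 13.6. The lowest knockout value was above the highest wild-type value on the signal scale, but the groups overlapped after scaling by array. Its log2 difference of 0.31 (SE 0.12, 95% interval 0.03 to 0.59) had an unadjusted p of 0.0364 and a limma adjusted p of 0.639, and did not pass. Defb25 entered the test only through the knockout, the group in which it was higher, and with normexp background correction its difference was 0.062. That correction added an offset of 50 to every signal, which by itself draws the log2 differences of dim probes toward 0.

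**Figure D2:**
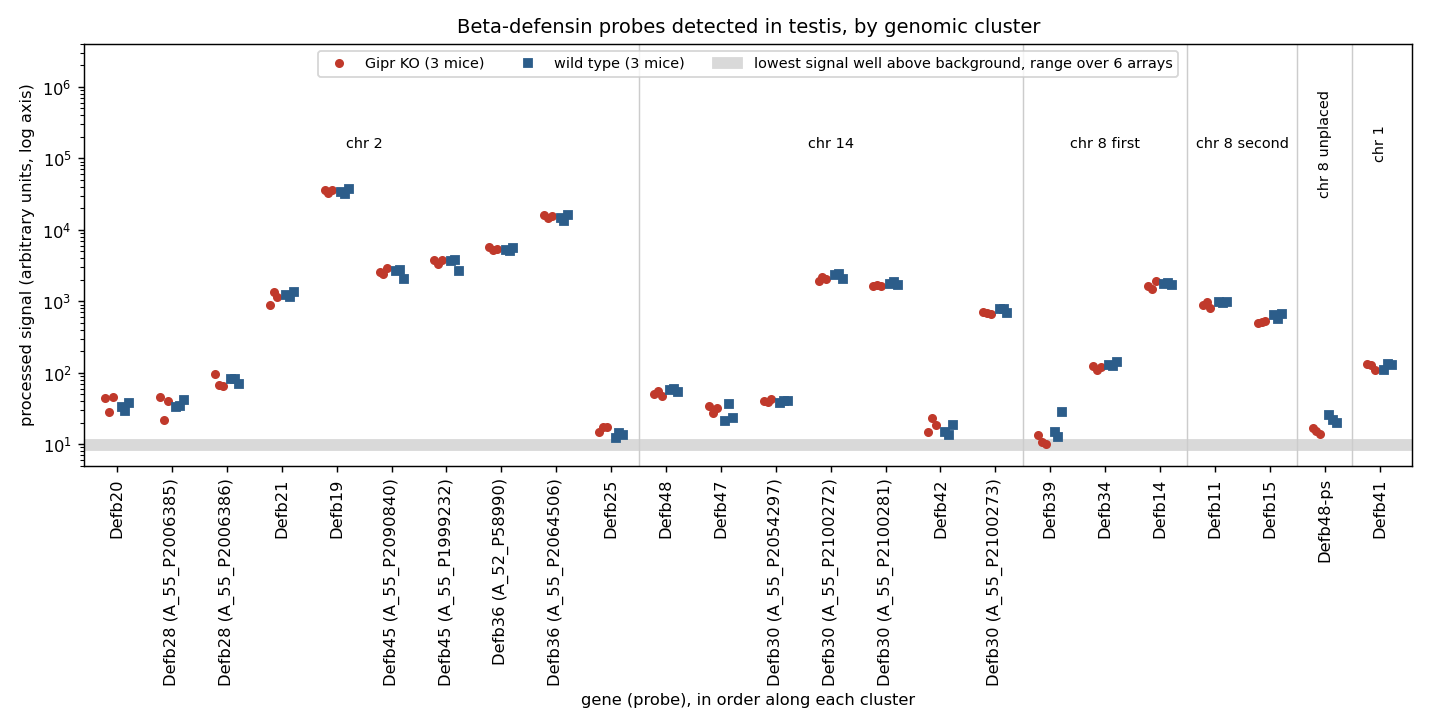
The vertical axis gives the processed signal of each detected probe on a log scale, with 1 point per mouse, knockout circles to the left of wild-type squares, and the grey band spans the lowest signal well above background (8.31 to 11.6 over the arrays). The genotypes overlap for Defb19 and Defb36, whereas all 3 knockout points lie below all 3 wild-type points for Defb15 and Defb48-ps and above them for Defb25.

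None of the chromosome 14 members was called. Defb30, known from epididymis, had 4 probes. The probe at position 63654638 read 1939, 2161 and 2072 in knockout testes and 2318, 2399.8 and 2048 in wild-type testes, a log2 difference of -0.14 (SE 0.11, limma adjusted p = 0.729). The probe at 63654754 read 1661, 1702 and 1623 in knockout testes and 1749, 1841 and 1686 in wild-type testes, a difference of -0.09 (SE 0.08). Another Defb30 probe, mapped at 63668644 on the far side of Defb42, gave -0.14 (SE 0.09), and the dim probe at 63653075 gave 0.04 (SE 0.07). All 4 sets overlapped between genotypes. The dim members Defb47 and Defb48 differed by 0.24 (SE 0.21) and -0.18 (SE 0.11). Single mice moved these sizes: Defb47 was 0.49 without wild-type replicate 2 and 0.11 without wild-type replicate 1, and Defb48 was -0.28 without knockout replicate 2 and -0.11 without knockout replicate 3. The probes of Defb42 disagreed in detection: the probe at 63667378 was well above background in all 6 testes (difference 0.26, SE 0.21), and the probe at 63665931 in none.

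Defb14, a skin and airway peptide known to bind Ccr6, was the detected member of the epithelial list. It read 1662, 1507 and 1915 in knockout testes and 1756, 1782 and 1694 in wild-type testes, and the samples interleaved. The log2 difference was -0.06 (SE 0.09, limma adjusted p = 0.856). Defb11, an epididymal member of the second chromosome 8 cluster, read 896, 987 and 814 in knockout testes and 975, 957 and 990.3 in wild-type testes. Its difference was -0.13 (SE 0.10, limma adjusted p = 0.733). Defb41, an epididymal member on chromosome 1, gave -0.03 (SE 0.11).

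Defb15, Defb34 and Defb48-ps were the tested members whose knockout and wild-type values did not overlap after scaling by array, each lower in the knockout. Defb15, known from epididymis, read 504, 508 and 534 in knockout testes and 634, 563 and 656 in wild-type testes. Its log2 difference was -0.27 (SE 0.08, 95% interval -0.46 to -0.08), with an unadjusted p of 0.0124 and a limma adjusted p of 0.597. Every knockout testis lay under every wild-type testis. Defb34, whose probe nearly matches that of Defb15, read 125, 109 and 122 in knockout testes and 127, 125 and 140.2 in wild-type testes. On this unscaled signal 1 knockout value exceeded 1 wild-type value. Its difference was -0.15 (SE 0.06, unadjusted p = 0.0536, limma adjusted p = 0.649). The pseudogene Defb48-ps, now named Gm21944 in RefSeq, read 17.0, 15.5 and 13.9 in knockout testes and 25.9, 21.9 and 19.5 in wild-type testes. Its difference was -0.55 (SE 0.14, 95% interval -0.88 to -0.21), with an unadjusted p of 0.00664 and a limma adjusted p of 0.551. With normexp background correction the Defb48-ps difference was -0.13 (unadjusted p = 0.0819). None of the 3 passed the test.

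Defb39, an epididymal member of the first chromosome 8 cluster, was well above background in 1 of 3 knockout testes and in all 3 wild-type testes. It read 13.6, 10.6 and 10.0 in the knockout and 15.01, 12.7 and 28.3 in the wild type. The groups overlapped, and wild-type replicate 3 was the high sample. The log2 difference was -0.65 (SE 0.29, 95% interval -1.34 to 0.05, limma adjusted p = 0.653). Defb39 entered the test only through the wild type, the group in which it was higher. The difference was -0.32 without wild-type replicate 3 and -0.14 with normexp background correction, whose offset of 50 draws dim probes toward 0. Defb22, a sperm-coat peptide of the epididymis, was seen in knockout replicate 1 and wild-type replicate 3 and was not tested. It read 9.15, 8.94 and 10.4 in the knockout and 4.20, 7.53 and 63.9 in the wild type, so the high value came from that same wild-type testis. In that testis the 10 detected epididymal secretory genes had a median deviation of 0.03 (log2), against 0.11 and 0.03 in the other wild-type testes. Those genes were detected in testis, which itself expresses some of them, so their median cannot show a trace of epididymis. Among epididymal secretory genes well above background on no array, Gpx5 was highest in wild-type replicate 3 (6.89). Crisp1, Lcn5, Lcn8, Pate4 and Rnase9 were each highest in another testis. None of these signals was well above background, so their order over the testes cannot show a trace of epididymis or its absence. Among epididymal secretory genes seen on some arrays only, Teddm1 (30.7) and Lcn9 (14.6) were highest in wild-type replicate 1. Spag11a was highest in knockout replicate 2 (9.43) and the brighter Spag11b probe in wild-type replicate 2 (14.4). The part of attached epididymis in the Defb22 value was not tested.

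Other members at the edge of detection came from knockout replicate 2. Defb23, Defb26 and Defb9 were well above background in that testis alone, at 14.4, 14.2 and 13.8. The same probes lay between 1.84 and 9.59 on the other arrays. By the ratio of signal to the software's error, the members nearest below detection were Defb46 (highest ratio 3.79) and Defb29 (3.31). The 21 genes seen on no array had signals between 1.72 and 8.00 on their 22 probes.

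Across the family, no difference between genotypes passed. Of 24 tested probes from 18 genes, 0 were called at a limma adjusted p under 0.05, and among all 38882 tested probes 18 were called (0.0463%). At an unadjusted p under 0.05, 3 beta-defensin probes were found, against 7.66% of all probes. The 1 higher probe was Defb25, against a background of 4.41%, and the 2 lower probes were Defb15 and Defb48-ps, against 3.25%. Defb25 passed the detection filter through its higher group alone, and among probes well above background in all 6 testes the count was 2. Groups that did not overlap were found for 0 probes higher in the knockout (7.87% of all probes) and for 3 lower (5.49% of all probes). Of those 3, the Defb15 and Defb34 probes could read each other's RNA, and Defb34 overlapped on the unscaled signal. Counts of 3 or fewer on 24 probes do not set the family apart from those backgrounds. By sign, 10 probes were higher and 14 lower (58.3% lower, against 47.2% of all tested probes), and the median log2 difference was -0.07 for beta-defensins and 0.01 for all tested probes. Differences ran from -0.65 (Defb39) to 0.31 (Defb25), both members that the filter admitted through their higher group, and 18 of the 24 were smaller than 0.2 in size. Adjusted p lay between 0.551 and 0.950.

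**Figure D3:**
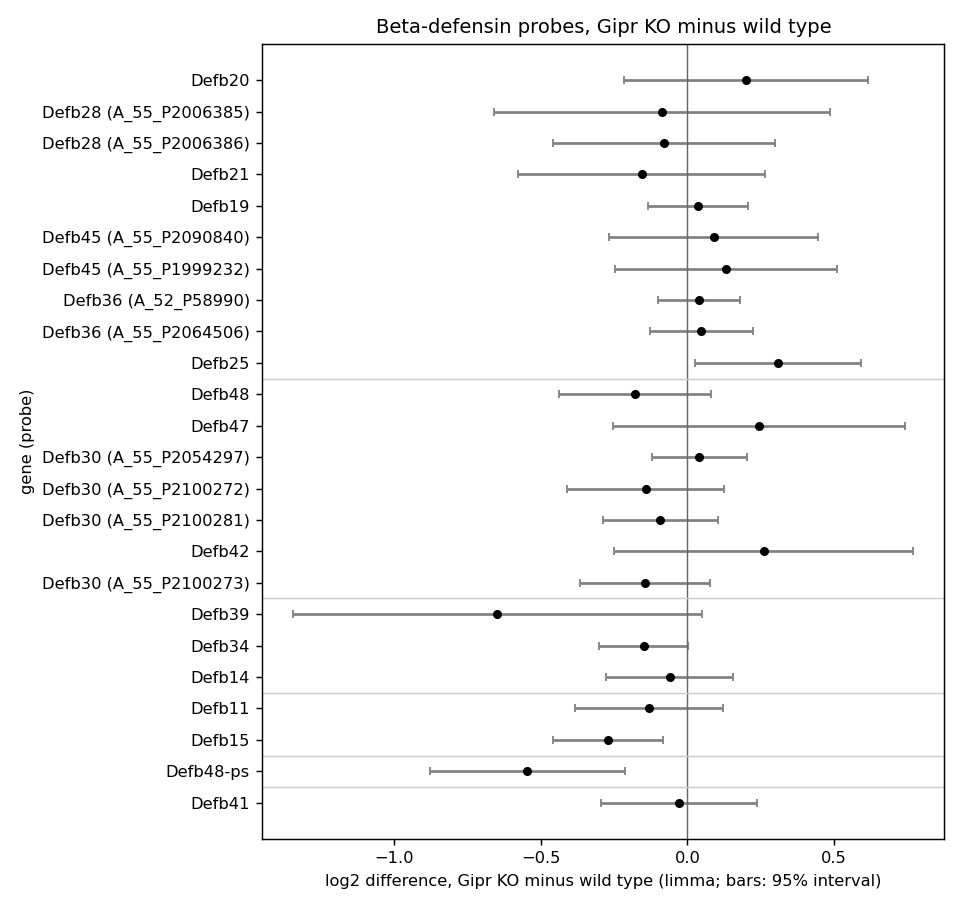
Each row is a tested beta-defensin probe, grouped by cluster, and the horizontal axis gives the log2 difference of knockout minus wild type with its 95% interval from limma. Most intervals cross 0, and those of Defb25, Defb15 and Defb48-ps do not, although their adjusted p of 0.639, 0.597 and 0.551 did not pass.

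By cluster, the direction differed without any call. On chromosome 2, 7 of 10 tested probes were higher in the knockout and the median was 0.04. On chromosome 14, 3 of 7 were higher and the median was -0.09. In the chromosome 8 clusters, all 3 and both 2 tested probes were lower, with medians of -0.15 and -0.20. Among other genes within 1 Mb of these clusters, 0 probes were called out of 111, 28, 62 and 31 tested, against 0.0463% of all tested probes. At that share a count of 0 does not set these neighbourhoods apart. At an unadjusted limma p under 0.05 the neighbours numbered 8, 3, 9 and 1, against 7.66% of all tested probes. Their median log2 differences were 0.01, 0.05, 0.13 and -0.03. The differences between clusters were not tested, and the Defb34 and Defb15 probes lie in different chromosome 8 clusters. These counts are of probes, not genes. Defb30 gave 4 of the chromosome 14 probes, and Defb28, Defb36 and Defb45 gave 2 each on chromosome 2. Defb25 on chromosome 2 and Defb39 in the first chromosome 8 cluster were admitted only through the group in which they were higher.

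The strongly detected chromosome 2 members did not share 1 pattern over the arrays. Defb19 and both Defb36 probes were lowest in wild-type replicate 2. There Defb19 stood at -0.11 from its mean on the log2 scale and the Defb36 probes at -0.14 and -0.06. The Defb45 probes stood at 0.12 and 0.15 in that testis. In wild-type replicate 3, where both Defb45 probes were lowest, Defb19 stood at 0.08 and the Defb36 probes at 0.07 and 0.02. The median of 22 Sertoli cell markers stood at 0.01, 0.00 and 0.13 in knockout testes and 0.02, -0.09 and -0.08 in wild-type testes. Sertoli markers were higher in the knockout for 17 of 22, beside 20519 of all 38882 tested probes, and none was called. At an unadjusted limma p under 0.05, 3 were higher (Rhox8, Fshr and Amh) and 0 lower, against 4.41% and 3.25% of all tested probes. Amh was well above background in 3 knockout and 0 wild-type testes and so was tested only through its higher group. Defb19 differed by 0.04 and the Defb36 probes by 0.05 and 0.04, beside that list's median of 0.10. The part of Sertoli cell RNA in the members' values was not tested.

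**Figure D4:**
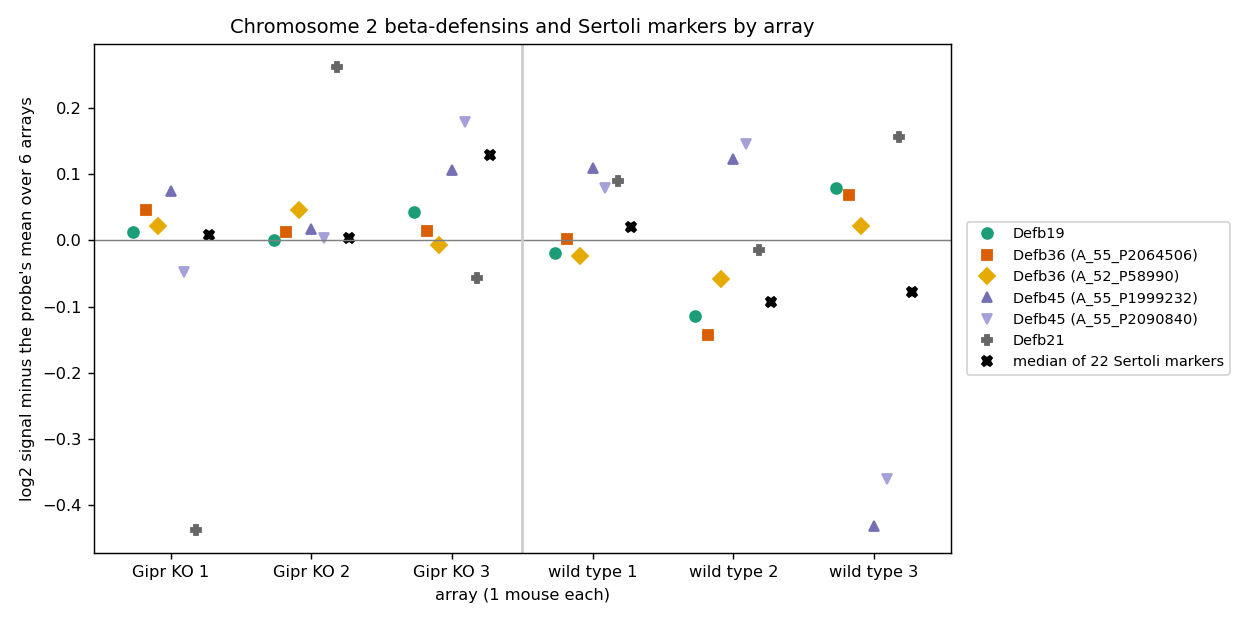
The vertical axis gives each probe's log2 signal minus its mean over the 6 arrays, per mouse, for the detected chromosome 2 members with strong signal and for the median of 22 Sertoli cell markers. Defb21 is low in knockout replicate 1 (-0.44) and both Defb45 probes are low in wild-type replicate 3 (-0.43 and -0.36).

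The tested genes of defensin receptors and signalling (Ccr6, Tlr2, Nfkb1, Il17ra, Myd88 and Il1b) gave no call either. Of 12 listed receptor and signalling genes, 6 were tested, 0 were called and 0 had an unadjusted p under 0.05, with a median log2 difference of -0.09. Ccr6, the chemokine receptor for beta-defensins, read 1138, 1222 and 967 in knockout testes and 1314, 1264 and 1180.3 in wild-type testes. Its difference was -0.19 (SE 0.12, limma adjusted p = 0.699). Mc1r, a melanocortin receptor that binds some beta-defensins, was well above background in 1 of 3 testes of each genotype, and Tlr4 in none. Of 19 other antimicrobial protein genes, 16 were tested and 0 were called. At an unadjusted limma p under 0.05, 2 were higher and 1 lower, against 4.41% and 3.25% of all tested probes. The 2 higher genes were Pglyrp1, a peptidoglycan-binding protein (0.62, SE 0.14, limma adjusted p = 0.484), and S100a9, a calcium-binding protein of neutrophils (limma adjusted p = 0.634). Both entered the test only through the knockout, with Pglyrp1 well above background in 3 knockout and 1 wild-type testes and S100a9 in 3 knockout and 0 wild-type testes, so this count is no support for a direction. Lcn2, an iron-scavenging lipocalin, was the lower one (-1.14, limma adjusted p = 0.642). Epididymal secretory genes had 0 calls among 10 tested, with a median of -0.08. Of these, 3 were higher and 7 lower, beside 47.2% lower among all tested probes. The 9 tested genes among the 22 epididymal beta-defensins had a median of -0.14. Adam7 in the first list and Defb39 in the second were tested only through the wild type, where they were higher. Neither list was tested as a set, so these medians are no support for a direction.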

How the data were processed

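Whole-testis RNA from 6 mice was labelled with Cy3 and hybridised to Agilent mouse arrays, per the labels' protocols. The deposited intensity values are spot signals that Agilent Feature Extraction 10.7.3.1 had background-subtracted and spatially detrended, per the file headers. The software's deposited p-value of each spot against its background and its flags stand beside them, per the file headers. The authors also deposited a value table, which matched the same signals times 1 factor per array that sets its median to 200, and it served as an alternative. No reads or depth exist for arrays, and the number of mice limits the precision.

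From these files, outlier spots were left out, spots of a probe were averaged on the log2 scale, and each array's 75th percentile was subtracted. Values compare 1 probe between arrays, never different probes. A total of 13 probes without a usable spot on some array were dropped. The 38882 probes well above background on all 3 arrays of a genotype were fitted with limma 3.58.1 (R 4.3.3, lmFit and eBayes, no covariate) on all arrays. Tests were two-sided with Benjamini-Hochberg adjustment over these probes, and an adjusted p under 0.05 was a call. The SE is limma's moderated standard error. An exact permutation test of 3 against 3 mice cannot go below 0.1. On simulated data for this comparison with 38882 probes, 66% of log2 changes of 1 and 18% of changes of 0.5 were recovered.

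All detected beta-defensin genes were named, with those seen on some arrays and the 2 nearest below detection, and up to 4 genes of lowest p from each other list. Clusters were split where neighbouring probes lay over 1 Mb apart. Members and lists were chosen with earlier results of these data known. Lists by known site rest on general knowledge of the mouse genes. RefSeq's table for GRCm38.p6 was used for names only and matched 47 member probes by accession and 4 by symbol. Exon boundaries on mm9 were not used here, and 1 probe sequence is not reported here. Alternatives were other background corrections, scalings, filters, detection rules, fits and the loss of each mouse.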

Additional observations from a re-analysis of the deposited data

How the results depend on the processing

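Beta-defensin calls stayed at 0 in the limma fit as described and in all 16 alternatives, and the lowest adjusted p of any member was 0.216. Of 376 member differences recomputed, 363 kept their sign and 0 crossed the threshold. Among the 13 that changed sign, the largest was 0.19 (SE 0.11), for a Defb28 probe (A_55_P2006385) without knockout replicate 2. With array weights the values that changed sign were 0.094 and 0.0031 (Defb28), -0.015 (Defb30 at 63653075) and -0.050 (Defb45, A_55_P2090840). When each mouse was left out in turn, the sign also turned for 8 probes. Defb41 ranged from -0.099 to 0.064 and Defb19 from -0.012 to 0.085. A Defb36 probe (A_55_P2064506) ranged from -0.011 to 0.094, and Defb21 from -0.32 to 0.025. The Defb45 probes ranged from -0.050 to 0.23 and from -0.068 to 0.19, and the Defb28 probes from -0.26 to 0.19 and from -0.23 to 0.029. The cause was not tested.

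Members at an unadjusted p under 0.05 numbered 3, and 5 with no filter on dim probes, which tests more probes, and 5 with array weights, and between 2 and 5 when a mouse was left out. Defb15 was among them in 17 of 17 fits, Defb48-ps in 16, Defb25 in 6 and Defb34 in 5. Calls over all probes numbered 18, against 30 with normexp, 7 with no filter, 35 with a trended robust fit, 29 with array weights, and 4 to 26 when a mouse was left out. Of the 18 calls 2 were higher in the knockout, against 0 of 16 after quantile normalization and 7 of 30 with normexp. The labels state no pairing by replicate number. Same-numbered deviations correlated at 0.058, -0.024 and -0.003, and different-numbered ones between -0.044 and 0.045, so a pairing cannot be settled from them. With the replicate number as a block, 6 probes were called, 0 of them beta-defensins, and 3 members had an unadjusted p under 0.05. Detected genes numbered 18, or 10 when required to exceed the highest negative control, 25 above its 95th percentile and 26 by the software's weaker significance flag, so dim members rest on the detection rule. Sizes of dim probes were smaller with normexp: Defb48-ps was -0.13, Defb39 -0.14, Defb25 0.062, Defb42 0.049, Defb20 0.044, Defb47 0.037 and Defb48 -0.064. That setting added an offset of 50 to every signal, which by itself draws the log2 differences of dim probes toward 0. Whether these sizes depend on the background correction therefore cannot be read from it. Leaving out 1 mouse moved Defb42 between 0.063 and 0.45 and Defb20 between 0.088 and 0.38. For Defb39, Defb42, Defb47 and other dim probes, signal over background limits the precision.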

Other observations

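Some beta-defensins stood on the array under other names and so were not members. The probe named EG654453, which RefSeq now gives to Defb33, lies on the same unplaced piece of chromosome 8 as Defb48-ps. It read 8814, 11222 and 8430.3 in knockout testes and 10391, 9401 and 10644 in wild-type testes, so this beta-defensin was far above background in every testis. The groups overlapped, with a log2 difference of -0.12 (SE 0.15, limma adjusted p = 0.826). On that piece, the probe of Gm15056 (older name Defb52) was detected as well, with a difference of -0.19 (SE 0.17, limma adjusted p = 0.759), and that of Gm6040 (older name Defb51) was well above background in 2 of 3 testes of each genotype. A probe named Gm15386, now Defb41, gave -0.06 (SE 0.10), beside -0.03 for the Defb41 probe of the family. These probes were chosen after their values were seen.

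The alpha-defensins, which in mice are known chiefly from Paneth cells of the small intestine, were read by 25 probes of 18 genes. Of these genes 5 were detected in testis and 10 were well above background on no array. Of the 6 tested probes 0 were called and 0 had an unadjusted p under 0.05 in limma, with 3 higher and 3 lower in the knockout. Signals were low: the Defa-rs10 probe read 73.9, 65.0 and 61.6 in knockout testes and 59.4, 65.8 and 69.7 in wild-type testes. The Defa1 probes read close copies of a large family, so their signal cannot be given to 1 gene with certainty.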
